A study of Rattus norvegicus with 6 samples.

Results

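The genes described here are the chaperones and signalling genes of the unfolded protein response (UPR), the response of a cell to misfolded protein in the endoplasmic reticulum (ER), set beside the chaperones of the cytosol and mitochondria that belong to the heat shock response. The list held 35 genes, 23 in the ER group and 12 in the heat shock group. Each gene was read from the probe set (the set of array probes summarised into 1 value) with the highest mean over the 6 arrays, among probe sets annotated with 1 gene symbol. Such a probe set was found for 33 genes, all 23 of the ER group and 10 of the heat shock group, out of 14217 genes and 31042 probe sets on the Affymetrix rat genome array. Hspa8 and Hsp90aa1 were left out because their probe sets carry more than 1 symbol.

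All arrays held RNA from retinal ganglion cells (RGCs), the neurons whose axons form the optic nerve, taken from Sprague Dawley rats at postnatal day 6, purified on antibody-coated dishes and kept for 12 days in culture in a medium with the growth factors BDNF and CNTF. The methods add forskolin to the medium and FUDR, an inhibitor of fibroblast growth, for all RGC cultures. No allele or transgene is given for any group. There were 3 groups of 2 arrays: Untreated RGCs, which received no added protein, RGCs given Gpc4 (glypican 4, a proteoglycan that astrocytes secrete) for 12 hours, and RGCs given TSP1 (thrombospondin 1, another astrocyte-secreted protein) for the same 12 hours. Each group had 1 array from each of 2 separate RGC cultures, with 2 wells pooled per array. The Gpc4 carried a His tag and was collected with nickel beads after secretion by HEK293 cells (an established line of human embryonic kidney origin), whereas the TSP1 was recombinant mouse protein that was purchased. No array received a different protein prepared as Gpc4 was, so Gpc4 and anything carried along in its preparation cannot be told apart.

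The UPR begins at sensors in the ER membrane (IRE1, PERK and ATF6), which detect unfolded protein and lead to the transcription factors XBP1, ATF4 and cleaved ATF6. XBP1 and ATF6 raise ER chaperones, disulfide isomerases and degradation factors, while ATF4 and its partner CHOP raise genes of amino acid supply and stress. The heat shock response is separate: the factor HSF1 responds to unfolded protein in the cytosol and raises HSP70, HSP90 and the small heat shock proteins. Neurons that build synapses make many membrane and secreted proteins, all of which fold in the ER.

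The promoters of the 2 groups carry different response elements, and the stretches below are shown because they hold the sequences through which the 2 pathways are known to act. RefSeq (rat assembly GRCr8) gave a window from 250 bases before to 50 bases after the start of 30 of the 33 genes, with Manf, Pdia3 and Pdia6 unmatched. The ER stress response element (ERSE) was searched as CCAAT and CCACG with 9 bases between them, and its relative ERSE-II as ATTGG and CCACG with 1 base between them, on both strands. The ERSE contains the short site CCACG, which was also counted alone. In the stretches below, written 5′ to 3′ on the strand of the gene and cut at the start site, capitals mark both parts of each ERSE and, in Herpud1, of the ERSE-II. Where the element lies on the opposite strand, the parts read CGTGG and ATTGG.

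Hspa5, chr3:38452943-38453015, plus strand: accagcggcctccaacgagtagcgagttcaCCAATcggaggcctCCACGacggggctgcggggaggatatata

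Hsp90b1, chr7:23012317-23012499, minus strand: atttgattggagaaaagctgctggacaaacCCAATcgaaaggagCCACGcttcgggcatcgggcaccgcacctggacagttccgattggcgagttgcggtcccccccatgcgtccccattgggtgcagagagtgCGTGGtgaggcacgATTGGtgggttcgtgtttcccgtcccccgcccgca

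Dnajc3, chr15:102432504-102432582, plus strand: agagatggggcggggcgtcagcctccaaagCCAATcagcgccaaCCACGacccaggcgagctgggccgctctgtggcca

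Calr, chr19:40213117-40213183, plus strand: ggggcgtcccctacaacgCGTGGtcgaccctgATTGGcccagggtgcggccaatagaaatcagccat

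Canx, chr10:35158039-35158107, minus strand: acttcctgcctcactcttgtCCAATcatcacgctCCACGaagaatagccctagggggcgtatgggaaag

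Creld2, chr7:121789209-121789287, plus strand: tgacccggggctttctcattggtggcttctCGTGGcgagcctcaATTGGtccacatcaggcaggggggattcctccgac

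Xbp1, chr14:84604528-84604606, plus strand: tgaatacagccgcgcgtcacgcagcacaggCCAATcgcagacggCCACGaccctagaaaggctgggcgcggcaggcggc

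Herpud1, chr19:10614791-10614861, minus strand: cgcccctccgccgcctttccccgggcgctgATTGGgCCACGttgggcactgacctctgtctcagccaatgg

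For the heat shock group, the heat shock element (HSE) was searched as GAANNTTC, a pair of facing units that reads the same on both strands, and as a run of 3 such units, a form that contains the pair. Capitals mark the pairs in 4 promoters of that group.

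Hsph1, chr12:10427307-10427367, plus strand: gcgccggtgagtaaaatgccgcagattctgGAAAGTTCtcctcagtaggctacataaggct

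Bag3, chr1:192533298-192533365, plus strand: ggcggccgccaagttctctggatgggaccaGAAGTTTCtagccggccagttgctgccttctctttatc

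Hspb1, chr12:26432373-26432460, minus strand: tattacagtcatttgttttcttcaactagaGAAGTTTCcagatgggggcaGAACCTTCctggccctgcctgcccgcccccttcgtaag

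Hspe1, chr9:64084237-64084304, plus strand: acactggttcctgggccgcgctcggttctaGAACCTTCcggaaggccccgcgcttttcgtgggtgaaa

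An ERSE lay in the windows of 7 of 20 ER group genes (35.0%), namely Hspa5, Hsp90b1, Dnajc3, Calr, Canx, Creld2 and Xbp1, in 0 of 10 heat shock group genes, and in 21 of all 27457 promoters (0.0765%). An ERSE-II lay in those of Hyou1 and Herpud1, and in 0.0546% of all promoters. Hyou1 has more than 1 start in the reference, and its 2 matches lie in the window of the upstream start. The HSE pair was in 8 of 10 heat shock group genes (80.0%), in 1 of 20 ER group genes (5.0%, P4hb), and in 8.34% of all promoters. The run of 3 units was found in Hsph1, Chordc1, Hspd1 and Hspe1 (4 of 10, against 0.736% of all promoters). Hspd1 and Hspe1, the 2 subunits of the mitochondrial chaperonin, are transcribed away from each other, and their windows share the same element.

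The shorter motifs divided the 2 groups less. The short site CCACG was in 17 of 20 ER group and 5 of 10 heat shock group promoters (32.5% of all), and the CRE-like core TGACG in 12 and 5 (22.0% of all). TGACGTG, the core of the UPR element bound by XBP1 and ATF6, which contains TGACG, was in 2 of each group (1.88% of all). The composite core of ATF4 and CHOP targets was searched only as TGATG, 1 base and AAT, which was in none of the 30 windows and in 1.05% of all. Forms with another last base were not searched, so a target may hold the element in such a form. These are matches of letters within the window and say nothing of elements outside it, such as those in introns.

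**Figure D1:**
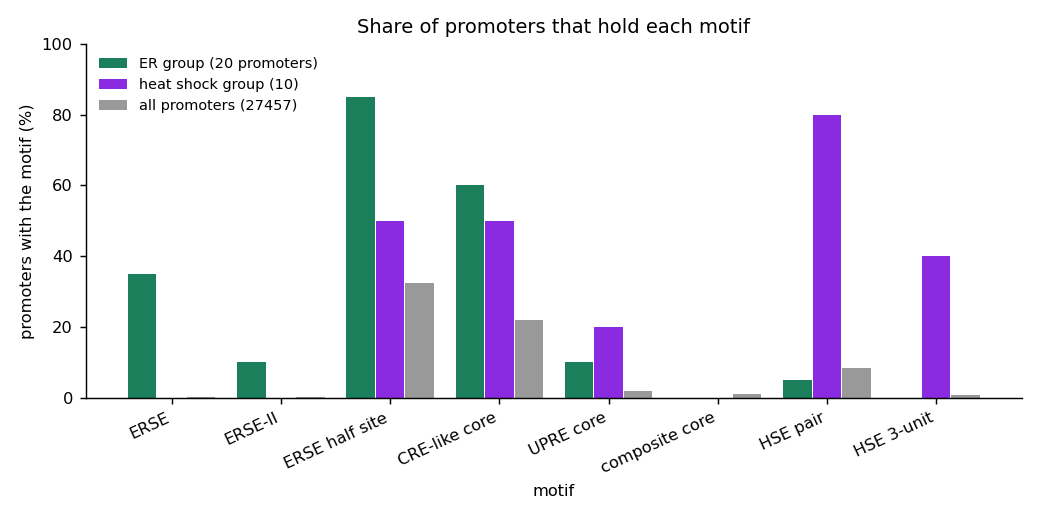
Share of promoters (%, y axis) that hold each motif (x axis) in the ER group (20 promoters, green), the heat shock group (10, violet) and all 27457 promoters (grey). ERSE and ERSE-II are in 35.0% and 10.0% of the ER group and in none of the heat shock group, whereas the HSE pair is in 80.0% of the heat shock group and 5.0% of the ER group.

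The arrays were first checked for their cells. Of 14 RGC markers 12 were measured, and all 12 lay above the array median on average, with a summed linear level between 81000 and 82300 on each array. Astrocyte, microglia, oligodendrocyte, photoreceptor, amacrine and bipolar, and endothelial markers lay mostly below the array median, in 7 of 9, 7 of 9, 5 of 7, 6 of 6, 5 of 7 and 5 of 6 genes, while fibroblast and pericyte markers did so in 2 of 9. The 6 array medians lay between 5.96 and 5.99. The deposited values carry no detection calls, so a low value cannot be told from background.

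No member passed the threshold (limma, adjusted p under 0.05 over all 31042 probe sets) in any comparison of treatments, with or without the culture as a block. Over all probe sets the share called was 0.0838% for Gpc4 against Untreated (0.206% with the block), 0% for TSP1 against Untreated (0.0129% with the block) and 0.0612% for Gpc4 against TSP1 (0.258% with the block). At an unadjusted p under 0.05, limma had 5 of 33 members for Gpc4 against Untreated (3 higher, 2 lower), 3 for TSP1 against Untreated (1 higher, 2 lower) and 7 for Gpc4 against TSP1 (5 higher, 2 lower). The same unadjusted limit held 6.88%, 4.4% and 4.51% of all probe sets. The members' own replicates lay close together, with a median gap of 0.08, 0.08 and 0.07 log2 units between the 2 Untreated, Gpc4 and TSP1 arrays. What follows therefore describes values on each array, and whether the arrays of 2 groups overlapped. All values are log2 expression values, and differences are log2 differences between group means.

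**Figure D2:**
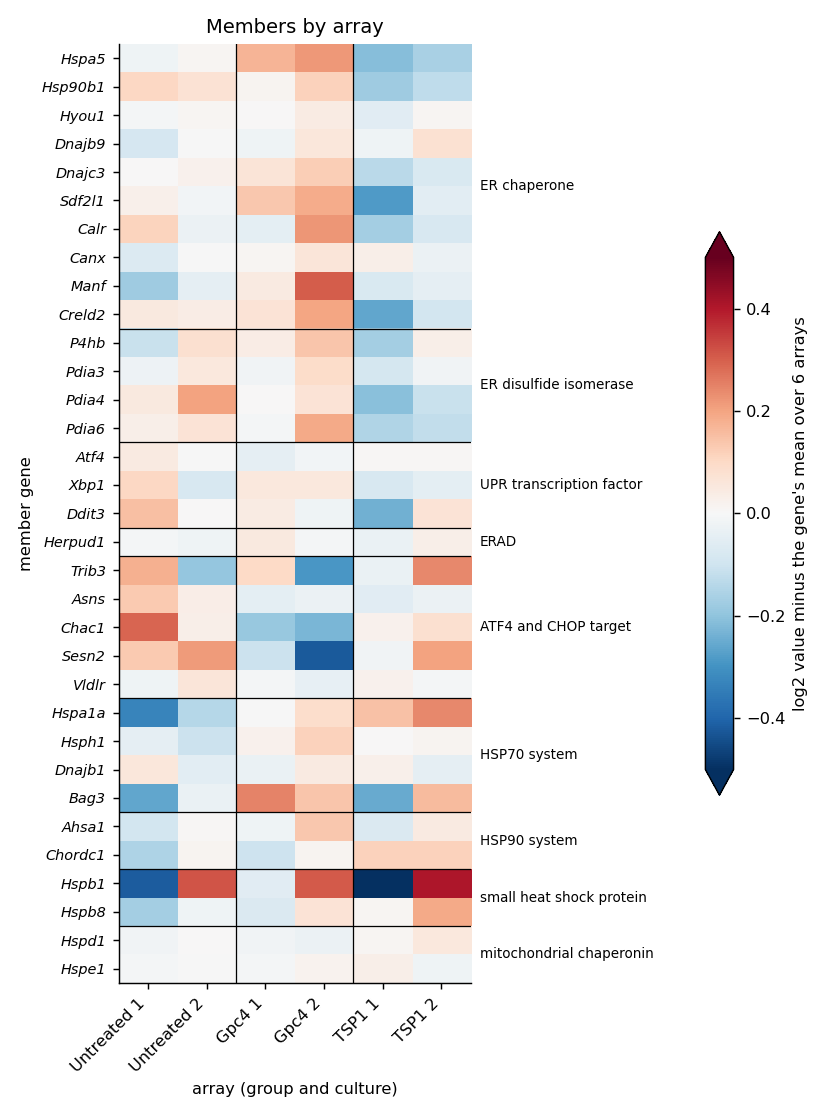
Log2 value of each of the 33 members (rows, by role) on each of the 6 arrays (columns), as the distance from the gene's own mean (colour scale, from -0.5 to 0.5, darker beyond). The upper block of ER chaperones and isomerases is mostly red on the Gpc4 arrays and blue on the TSP1 arrays, Sesn2 and Chac1 are blue on the Gpc4 arrays, and Hspb1 follows the culture.

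Among the ER chaperones, the clearest separation was in Hspa5, which encodes BiP, the abundant HSP70 of the ER that also holds the UPR sensors inactive. Its values were 11.65 and 11.68 on the Untreated arrays, 11.84 and 11.89 on the Gpc4 arrays, and 11.46 and 11.51 on the TSP1 arrays. The 3 groups did not overlap, with Gpc4 highest and TSP1 lowest, and the gap was 0.38 between Gpc4 and TSP1 in each culture. The difference was 0.20 for Gpc4 against Untreated (95% interval 0.0034 to 0.3966), -0.18 for TSP1 against Untreated (-0.3766 to 0.0166) and 0.38 for Gpc4 against TSP1 (0.1834 to 0.5766, 1.3-fold). The last of these had an adjusted p of 0.515 in limma, and of 0.0546 to 0.996 over 14 other ways of fitting. In RNA from whole cultures, fewer cells of a type and less RNA per cell cannot be told apart.

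Sdf2l1 and Creld2 followed the same order. Sdf2l1, a BiP-associated factor that keeps folding clients soluble, read 8.59 and 8.55 in Untreated, 8.70 and 8.75 with Gpc4, and 8.28 and 8.51 with TSP1. Creld2, a secretory pathway protein induced by ER stress, read 8.14 and 8.13, 8.16 and 8.29, and 7.83 and 8.0 in the same order. For both genes every Gpc4 array lay above every Untreated array and every TSP1 array below, although the Gpc4 and Untreated values of Creld2 were only 0.02 apart at the nearest. Gpc4 against TSP1 came to 0.33 (0.0917 to 0.5683) for Sdf2l1 and 0.31 (0.0801 to 0.5399) for Creld2, with adjusted p of 0.907 and 0.938 in limma.

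Manf, a secreted ER protein with a protective effect on neurons, read 10.07 and 10.20 in Untreated, 10.29 and 10.55 with Gpc4, and 10.17 and 10.20 with TSP1. Here it was the Gpc4 arrays that stood apart, by 0.285 from Untreated (0.0265 to 0.5435, adjusted p 0.71 in limma), and the TSP1 arrays overlapped Untreated. Hsp90b1, which encodes GRP94, the HSP90 of the ER, showed the other side of the pattern. Its values were 11.72 and 11.69 in Untreated, 11.63 and 11.73 with Gpc4, and 11.44 and 11.49 with TSP1. Both TSP1 arrays lay below the other 4, with a difference of -0.24 from Untreated (-0.4433 to -0.0367, adjusted p 0.985 in limma), while Gpc4 and Untreated overlapped.

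Of the remaining chaperones, Dnajc3, a BiP co-chaperone, lay in the same order as Hspa5 (0.08 for Gpc4 and -0.12 for TSP1 against Untreated), again with no overlap among the 3 groups. Calr, the calcium-binding lectin calreticulin, had both TSP1 arrays lowest (-0.165 against Untreated). Canx, the membrane lectin calnexin, Hyou1, a nucleotide exchange factor of BiP, and Dnajb9, another BiP co-chaperone, lay within 0.07 of Untreated in both treatments. The disulfide isomerases form and rearrange disulfide bonds in the ER. Pdia4 read 9.42 and 9.57 in Untreated, 9.37 and 9.44 with Gpc4, and 9.16 and 9.26 with TSP1, and Pdia6 read 10.72 and 10.76, 10.68 and 10.88, and 10.54 and 10.57. In both genes the TSP1 arrays were the lowest of the 6, by -0.285 (-0.5082 to -0.0618) and -0.185 (-0.4123 to 0.0423) against Untreated, with an adjusted p of 0.985 in limma for each. P4hb and Pdia3 differed from Untreated by -0.055 and -0.065 with TSP1 and by 0.105 and 0.025 with Gpc4, with arrays that overlapped.

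Counted together, 12 of the 14 ER chaperones and isomerases had a positive difference for Gpc4 against Untreated (median 0.065), 11 had a negative one for TSP1 against Untreated (median -0.1425), and 13 had a positive one for Gpc4 against TSP1 (median 0.205). The median over all probe sets was -0.005 in each comparison. Without the Gpc4 array of culture 2 the medians for Gpc4 against TSP1 and against Untreated were 0.1175 and 0.0225, and without that of culture 1 they were 0.2475 and 0.125. Both Gpc4 arrays lay above both TSP1 arrays in 10 of the 14 genes and in 14.6% of all probe sets, and both lay below in 0 of the 14 and in 15.5% of all. Against Untreated, 6 of the 14 had both Gpc4 arrays above (16.0% of all probe sets) and 0 had them below (18.9%), whereas 0 had both TSP1 arrays above (14.3%) and 8 had them below (15.6%). Markers of fibroblasts and pericytes had differences of both signs in the same comparison. For Gpc4 against TSP1, Lum came to 1.945, Dcn to 1.765, Pdgfra to 1.355, Fn1 to -0.605 and Postn to -0.865, against a largest chaperone value of 0.38, and Lum, Dcn and Postn passed the threshold with the block (adjusted p 0.00865, 0.0262 and 0.0129 in limma) and not without it (0.995 for each). The median of all 9 was -0.015, their summed level was 1220 and 1850 on the Gpc4 arrays and 1380 and 2340 on the TSP1 arrays, and their part in the chaperone values was not tested. All 3 comparisons draw on the same 6 arrays, so these counts are not independent of each other. Among the 15429 probe sets with a mean of at least 6, as all 14 genes have, both Gpc4 arrays lay above both TSP1 arrays in 11.2%. The mean of the 14 genes was 9.91 and 9.95 on the Untreated arrays, 9.95 and 10.06 on the Gpc4 arrays, and 9.77 and 9.86 on the TSP1 arrays, so the TSP1 arrays were the lowest and the Gpc4 and Untreated arrays overlapped.

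The ER group genes with an ERSE or ERSE-II in the sequences above lay together. All 9 had a positive Gpc4 against TSP1 difference, from 0.02 in Herpud1 to 0.38 in Hspa5 (median 0.2), beside 47.9% of all probe sets, and 6 had both Gpc4 arrays above both TSP1 arrays, beside 14.6%. The 11 with neither element ran from -0.355 to 0.33 (median -0.01), with 3 separate in each direction, beside 14.6% above and 15.5% below over all probe sets, and 5 of these 11 are targets of ATF4 and CHOP whose values are given below. Against Untreated, the medians were 0.045 and -0.065 with Gpc4, and -0.12 and -0.08 with TSP1, for genes with and without an element. The genes with an element are mostly chaperones. Chaperones and isomerases with an element ran from 0.035 in Canx to 0.38 in Hspa5 for Gpc4 against TSP1. Those with a window but neither element were at 0.33 (Sdf2l1), 0.195 (Pdia4), 0.16 (P4hb) and -0.01 (Dnajb9). Xbp1 and Herpud1, which have an element and are not chaperones, were at 0.115 and 0.02. The parts of role and element in these values were not tested.

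Among other ER folding factors, of 21 measured, including Dnajb11, Ero1a, Uggt1 and Ppib, 12 had a positive Gpc4 against TSP1 difference (median 0.01). The arrays of the 2 groups were separate in 0 of the 21, beside 14.6% above and 15.5% below over all probe sets. The values of smallest p in that list were 0.13 for Prkcsh, the beta subunit of glucosidase II, and -0.23 for Txndc5, a disulfide isomerase. For the degradation and translocation machinery (26 of 28 measured) the median was -0.0125 with 11 positive. Its smallest p was in Ube2j1, a ubiquitin-conjugating enzyme of the ER membrane, which read 8.45 and 8.38 in Untreated, 8.66 and 8.75 with Gpc4, and 8.2 and 8.34 with TSP1, in the same order as Hspa5 (Gpc4 against TSP1 0.435, adjusted p 0.49 in limma). The other values of smallest p in these 2 lists against Untreated were 0.325 for Sec63 with Gpc4 and 0.245 for Ssr1 with TSP1, both of the translocation machinery, and -0.36 for Txndc5 with Gpc4, -0.235 and -0.215 for Ero1b, an ER oxidase, with Gpc4 and TSP1, and -0.21 for Calu, a calcium-binding ER protein, with TSP1. Edem1, which sends misfolded glycoproteins to degradation, was -0.14 for Gpc4 against TSP1. No gene of these 2 lists passed the threshold in any comparison, with or without the block.

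**Figure D3:**
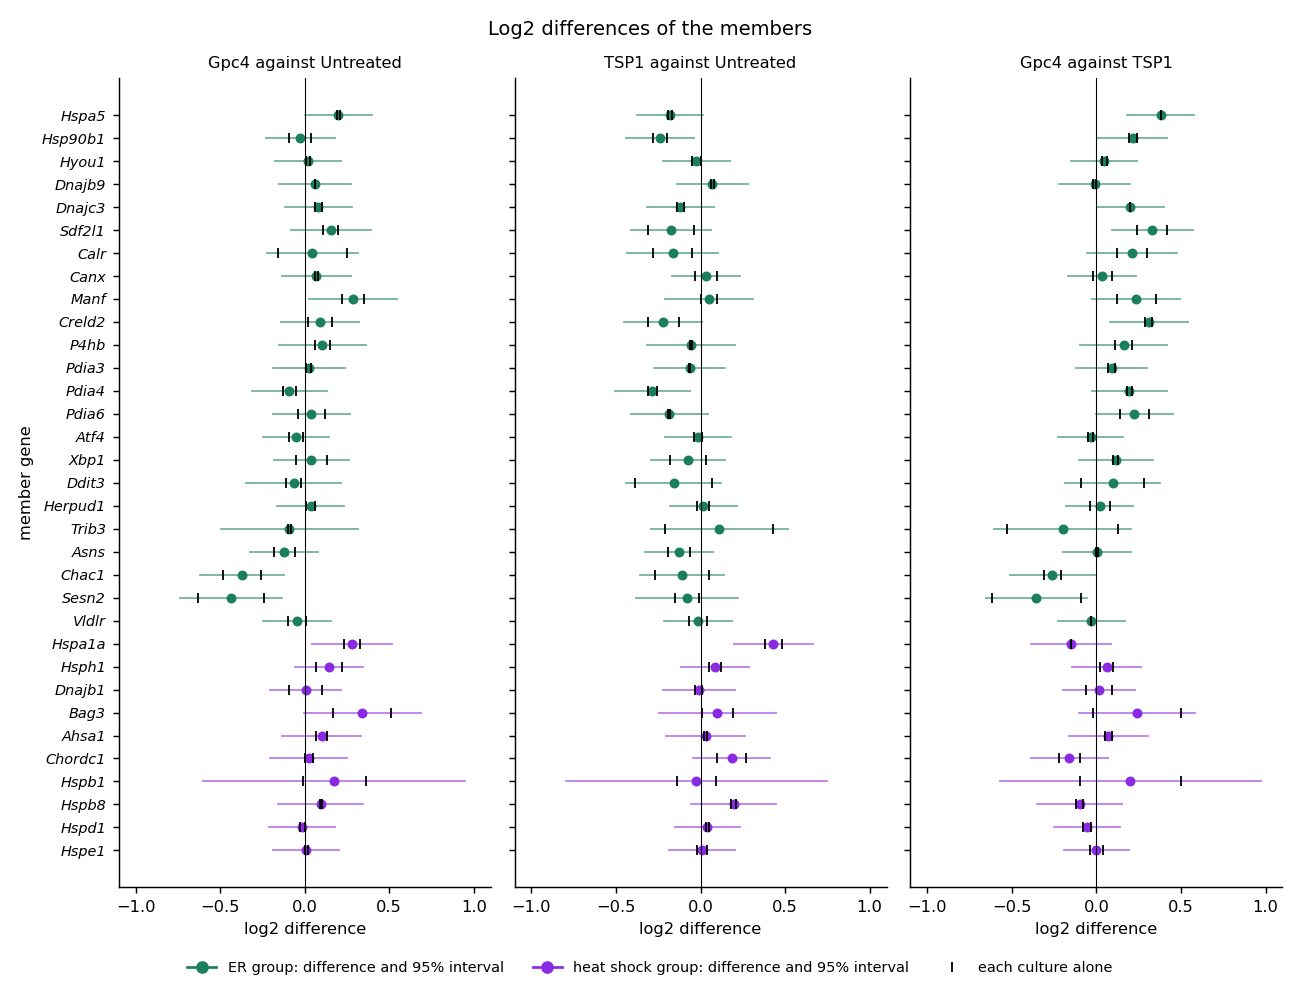
Log2 difference (x axis) of each member (y axis) in 3 comparisons, with the 95% interval of the limma fit (line), the ER group in green, the heat shock group in violet and the difference within each culture as black ticks. For Gpc4 against TSP1, 13 of the 14 upper genes (chaperones and isomerases) lie right of 0 and Sesn2 and Chac1 lie left of it, with both cultures on the same side.

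Of the transcription factors Atf4, Xbp1 and Ddit3, only Atf4 had arrays separate from Untreated, and with Gpc4 alone. Atf4, the factor made when PERK slows translation, lay between 12.98 and 13.07 on all 6 arrays. Xbp1, whose mRNA IRE1 splices into its active form, lay between 11.11 and 11.29, and Ddit3, which encodes CHOP, lay between 9.01 and 9.40. For Gpc4 against Untreated the 3 differences were -0.05, 0.04 and -0.065, and for TSP1 against Untreated -0.015, -0.075 and -0.16. The last of these, in Ddit3, was -0.39 in culture 1 and 0.07 in culture 2. The array measures total mRNA, so splicing of Xbp1 and translation of Atf4 were not measured. Herpud1, an ER degradation factor, lay between 8.86 and 8.94 on every array.

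The sensors and transducers (20 of 21 measured) had no gene past the threshold without the block, with a median of -0.065 for Gpc4 against Untreated, -0.0075 for TSP1 against Untreated and -0.0525 for Gpc4 against TSP1. Both Gpc4 arrays lay below both Untreated arrays in 7 of the 20 and above in 1, beside 18.9% and 16.0% of all probe sets. They lay below both TSP1 arrays in 8 and above in 1, beside 15.5% and 14.6%. Both TSP1 arrays lay below both Untreated arrays in 3 and above in 1, beside 15.6% and 14.3%. With the block 1 gene passed, Atf3, a stress-induced factor that ATF4 activates. Atf3 read 9.02 and 9.35 in Untreated, 8.2 and 8.16 with Gpc4, and 9.03 and 9.27 with TSP1. Both Gpc4 arrays lay below the other 4, whereas Untreated and TSP1 overlapped. The difference was -1.005 against Untreated (SE 0.1333) and -0.97 against TSP1 (SE 0.1333), with adjusted p of 0.0682 and 0.0915 in limma, 0.0222 and 0.02 with the block, and up to 0.805 and 0.976 when the Gpc4 array of culture 2 was left out. With TSP1 the smallest p values of this list against Untreated were in Creb3, a membrane-bound transcription factor (-0.205), and Mbtps1, the protease that cleaves ATF6 (-0.105), neither past the threshold.

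The targets of ATF4 and CHOP lay mostly below Untreated with Gpc4. Sesn2, a stress sensor that restrains mTORC1, read 8.57 and 8.65 in Untreated, 8.33 and 8.02 with Gpc4, and 8.42 and 8.64 with TSP1. Chac1, which degrades glutathione, read 10.40 and 10.14, 9.92 and 9.88, and 10.13 and 10.19. In both genes the Gpc4 arrays were the lowest of the 6 and the TSP1 arrays overlapped Untreated. Gpc4 against Untreated came to -0.435 (-0.7351 to -0.1349) for Sesn2 and -0.37 (-0.6198 to -0.1202) for Chac1, with adjusted p of 0.59 and 0.584 in limma, and Gpc4 against TSP1 to -0.355 and -0.26.

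The other 3 targets had smaller values in the same direction against Untreated. Asns, asparagine synthetase, was -0.12 with Gpc4 and -0.125 with TSP1, with both treated groups below both Untreated arrays. Trib3, a pseudokinase that feeds back on ATF4, was -0.09 with Gpc4, but its TSP1 arrays read 7.07 and 7.34, on either side of the Untreated mean. Vldlr, a lipoprotein and reelin receptor, was -0.045 with Gpc4. So 5 of 5 were negative for Gpc4 against Untreated (median -0.12), beside 15640 of all 31042 probe sets. In 3 of the 5 both Gpc4 arrays lay below both Untreated arrays. The same held for 18.9% of all probe sets and 23.7% of those with a mean of at least 6. Over 11 other ways of fitting the median ran from -0.285, without the Gpc4 array of culture 1, to -0.085. The mean of the 5 genes was 9.15 and 9.04 in Untreated, 8.96 and 8.81 with Gpc4, and 9.0 and 9.11 with TSP1, which puts the Gpc4 arrays below the other 4.

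In a longer list of ATF4 targets, of 28 measured out of 29, 7 had a positive and 21 a negative or zero difference for Gpc4 against Untreated (median -0.1125), and 16 had both Gpc4 arrays below both Untreated arrays, beside 18.9% of all probe sets and 23.7% of those with a mean of at least 6. The smallest p values were in Slc7a11, the cystine transporter (-0.515, adjusted p 0.483 in limma), and Eif4ebp1, a translation repressor (-0.31, adjusted p 0.638). With TSP1 they were in Sars1, a tRNA synthetase (-0.205), and Ddit4, an mTORC1 inhibitor (0.2), and for Gpc4 against TSP1 in Nupr1, a stress-induced nuclear protein (-0.375), and Slc7a11 (-0.345). Nupr1 lay between 4.68 and 5.26 on the 6 arrays, below the array median. With TSP1 8 of the 28 were positive (median -0.065). Both TSP1 arrays lay below both Untreated arrays in 10, beside 15.6% of all probe sets, and above in 5, beside 14.3%. Both Gpc4 arrays lay above both Untreated arrays in 4, beside 16.0%. None of the 28 passed the threshold in a comparison of treatments. On the Gpc4 arrays the summed level of astrocyte markers was 1590 and 1570, against 1200 to 1510 on the other 4, and that of endothelial markers 313 and 335, against 187 to 241. Each sum moved with 1 gene, Glul for the astrocytes and Kdr for the endothelial cells. Without Glul the astrocyte sum was 340 on both Gpc4 arrays and 307 to 362 on the other 4, and without Kdr the endothelial sum was 80.4 and 78.9 against 74.9 to 82.0.

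**Figure D4:**
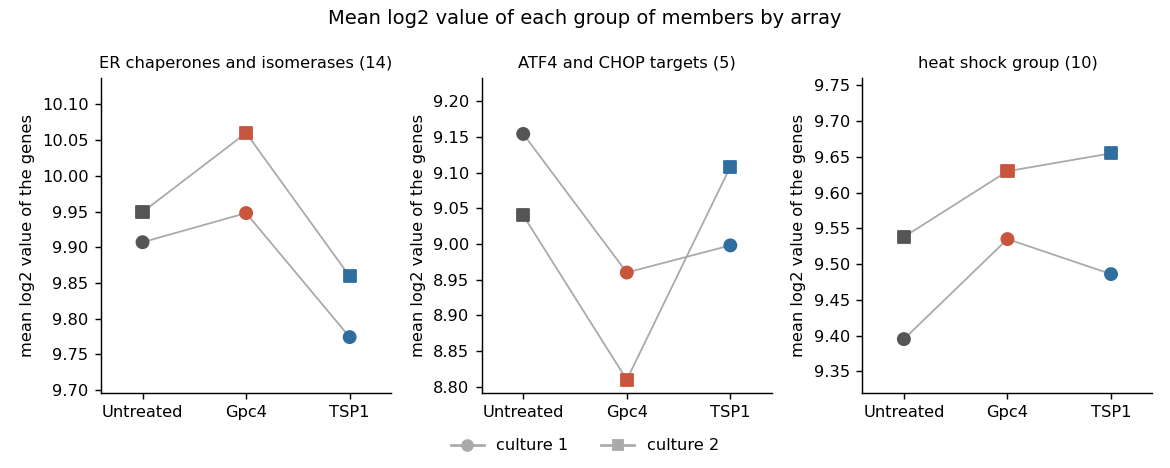
Mean log2 value (y axis, each panel spanning 0.44 log2 units) of the 14 ER chaperones and isomerases, the 5 targets of ATF4 and CHOP and the 10 heat shock genes on each array, by group (x axis), with circles for culture 1, squares for culture 2 and grey lines joining the arrays of a culture. The chaperones are lowest with TSP1, the ATF4 and CHOP targets lowest with Gpc4, and the heat shock group lowest in Untreated within each culture.

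In the heat shock group, the member of largest difference for TSP1 against Untreated was Hspa1a, which encodes the inducible HSP70. Its values were 5.82 and 6.01 in Untreated, 6.15 and 6.24 with Gpc4, and 6.30 and 6.39 with TSP1. The groups did not overlap, with Untreated lowest and TSP1 highest, but all 6 values lay near the array median. TSP1 against Untreated came to 0.43 (0.1952 to 0.6648, unadjusted p 0.00308, adjusted p 0.985 in limma) and Gpc4 against Untreated to 0.28 (0.0452 to 0.5148, adjusted p 0.684). A near-identical copy, Hspa1b, exists, and probes for the 2 genes may share signal.

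Bag3, a partner of HSP70 that directs clients to autophagy, read 7.74 and 7.97 in Untreated, 8.25 and 8.14 with Gpc4, and 7.75 and 8.16 with TSP1. Both Gpc4 arrays lay above Untreated (0.34, -0.0053 to 0.6853, adjusted p 0.727 in limma), and the TSP1 arrays spread over both. Hspb8, a small heat shock protein that works with Bag3, read 9.30 and 9.45, 9.40 and 9.54, and 9.48 and 9.66, and Chordc1, a co-chaperone of HSP90, read 9.54 and 9.71, 9.59 and 9.71, and 9.81 and 9.81. In both of them the TSP1 arrays lay above the Untreated arrays (0.195 and 0.185), and the Gpc4 arrays overlapped Untreated. Hsph1, a nucleotide exchange factor of HSP70, was 0.145 with Gpc4 and 0.085 with TSP1, above Untreated on every treated array. Dnajb1, an HSP40, Hspd1 and Hspe1 lay within 0.04 of Untreated in both treatments, and Ahsa1, which activates the ATPase of HSP90, was 0.10 with Gpc4 and 0.03 with TSP1.

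Of the 10 heat shock genes 9 had a positive difference for Gpc4 against Untreated (median 0.0975) and 8 for TSP1 against Untreated (median 0.0625), while Gpc4 against TSP1 was split, with 5 positive, 4 negative and 1 at 0 (median 0.0075). Over all probe sets 48.0%, 47.7% and 47.9% were positive in these comparisons. Only 5 of the 10 were positive in both cultures with Gpc4 and 7 with TSP1, each against Untreated. Both treated arrays lay above both Untreated arrays in 3 of 10 genes with Gpc4 and 5 of 10 with TSP1, beside 16.0% and 14.3% over all probe sets. They lay below in 0 of 10 for either treatment, beside 18.9% with Gpc4 and 15.6% with TSP1 over all probe sets. The 8 genes with an HSE pair had medians of 0.06 and 0.0625 for Gpc4 and TSP1 against Untreated. The 2 without it, Hspa1a and Ahsa1, had medians of 0.19 and 0.23. Other chaperones of the cytosol and mitochondria (40 of 43 measured) had medians of -0.0325 in both comparisons and 15 and 13 of 40 positive. Both Gpc4 arrays lay below both Untreated arrays in 14 of these 40 and above in 5, beside 18.9% and 16.0% of all probe sets. Both TSP1 arrays lay below in 8 and above in 6, beside 15.6% and 14.3%. The smallest p values of these 40 genes against Untreated were in Lonp1, a mitochondrial protease, at -0.25 with Gpc4 and -0.205 with TSP1. On the other side of 0 they were in the HSP70 genes Hspa2 at 0.64 with Gpc4 and Hspa14 at 0.465 with TSP1. None of these genes passed the threshold.

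Set side by side, the medians of the ER and heat shock groups lay on opposite sides of Untreated with TSP1, a contrast given here as a description with no test. For TSP1 against Untreated, 18 of 23 ER genes were negative (median -0.08) and 8 of 10 heat shock genes positive (median 0.0625). For Gpc4 against Untreated, 14 of 23 ER genes were positive (median 0.035, with the ATF4 targets among the negative ones) and 9 of 10 heat shock genes (median 0.0975). For Gpc4 against TSP1, 17 of 23 ER genes were positive (median 0.095) against 5 of 10. Both Gpc4 arrays lay above both TSP1 arrays in 11 of 23 ER genes (47.8%) and 1 of 10 heat shock genes, beside 14.6% of all probe sets, and below in 3 of 23 and 3 of 10, beside 15.5%. The 1 of 10 above and the 3 of 23 below are near these shares.

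The distance between the 2 groups on an array, taken as the mean of the ER genes minus that of the heat shock genes, was 0.479 and 0.320 in Untreated, 0.314 and 0.25 with Gpc4, and 0.246 and 0.170 with TSP1. It has meaning only between arrays, since different probe sets differ in brightness. TSP1 minus Untreated came to -0.2331 in culture 1 and -0.1501 in culture 2, and Gpc4 minus Untreated to -0.1656 and -0.0699, so the 2 groups of genes lay nearest with TSP1 in both cultures. The SD between cultures was 0.1124 in Untreated, 0.0448 with Gpc4 and 0.0537 with TSP1, and no p is given because the genes were chosen.

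**Figure D5:**
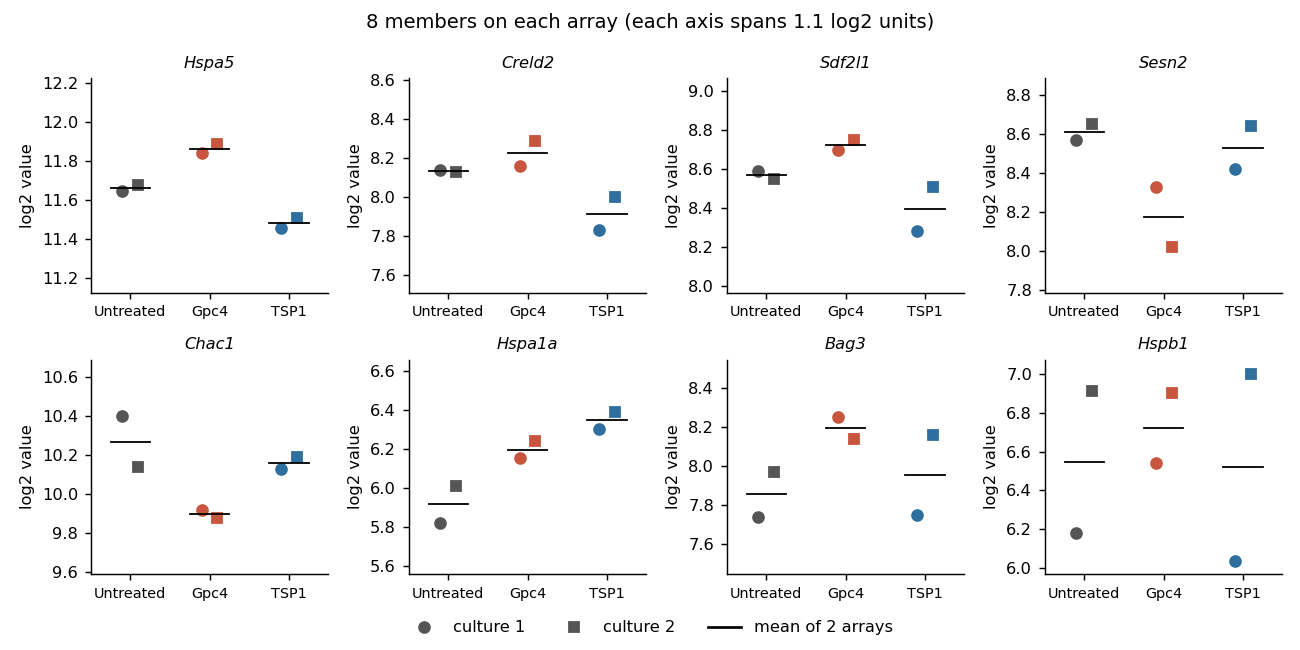
Log2 value (y axis, each panel spanning 1.1 log2 units) of 8 members on each array, by group (x axis), with circles for culture 1, squares for culture 2 and a line at the mean of 2 arrays. Hspa5, Creld2 and Sdf2l1 are ordered Gpc4, Untreated, TSP1 from high to low, Sesn2 and Chac1 are lowest with Gpc4, Hspa1a is lowest in Untreated, and Hspb1 is higher in culture 2 in every group.

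The largest difference of any member was between the 2 cultures. Hspb1, the small heat shock protein HSP27, read 6.18, 6.54 and 6.04 in culture 1 (Untreated, Gpc4, TSP1) and 6.91, 6.90 and 7.0 in culture 2. The culture 1 values of Untreated and TSP1 lay near the array median. Every culture 2 array lay above every culture 1 array, by 0.6833 on average (0.4217 to 0.945). The adjusted p was 0.057 in limma with the treatment in the model, and between 0.0187 and 0.729 over 11 other ways of fitting, where 0.561% of all probe sets passed. Cryab, the small heat shock protein alpha B-crystallin of the list of other chaperones, did pass, at 7.11, 7.42 and 6.46 in culture 1 and 8.06, 8.38 and 7.67 in culture 2 (1.04, adjusted p 0.00251 in limma).

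With the block, Cryab also passed for Gpc4 against TSP1 (0.835, adjusted p 0.995 in limma and 0.025 with the block, with a range of 0.00804 to 1 over 14 other ways of fitting). Gdf15, an ATF4 target that encodes a secreted stress signal, passed between cultures (0.8367, adjusted p 0.00657 in limma). Its values were 4.68 to 4.74 in culture 1 and 5.39 to 5.71 in culture 2, all below the array median. Neither Cryab nor Gdf15 passed between cultures once any array was left out, with adjusted p up to 0.705 and 0.729. The summed level of fibroblast and pericyte markers was 1160 to 1380 in culture 1 and 1850 to 2340 in culture 2, with 8 of 9 genes higher in culture 2 on average and 3 past the threshold. That of microglia markers was 441 to 547 and 305 to 347, with 9 of 9 lower and 3 past it. The part of these cells in the values of Hspb1, Cryab and Gdf15 was not tested.

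Apart from Hspb1, culture differences of the members ran from -0.1633 in Trib3 to 0.1767 in Bag3. P4hb read 11.01, 11.16 and 10.95 in culture 1 and 11.20, 11.26 and 11.15 in culture 2 (Untreated, Gpc4, TSP1), and Trib3 read 7.28, 7.20 and 7.07 in culture 1 and 6.91, 6.81 and 7.34 in culture 2. Culture 2 was higher within each group for P4hb, and lower in all but TSP1 for Trib3. All 14 ER chaperones and isomerases were higher in culture 2 on average (median 0.0834), from 0.02 in Canx to 0.1633 in P4hb, while the 5 ATF4 and CHOP targets had a median of -0.0167. In 13 of 33 members culture 2 was higher within all 3 groups, and in 0 was it lower, beside 13.9% and 17.5% of all probe sets. The median over all probe sets was -0.01. The chaperone order of Gpc4 above TSP1 was seen within each culture, with medians over the 14 genes of 0.165 in culture 1 and 0.22 in culture 2.

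Of the 33 members 9 have further probe sets, 13 in all, which had the same sign as the one used in 9, 8 and 8 of 13 for Gpc4 against Untreated, TSP1 against Untreated and Gpc4 against TSP1. For Hsph1 the other probe set gave 0.185 and 0.105 for Gpc4 and TSP1 against Untreated, close to the values above. For Hspb8 the other probe set, with a mean of 7.75, gave -0.115 and -0.105, opposite in sign to the 0.095 and 0.195 of the one used. For Sesn2 the other probe set gave 0.12 for Gpc4 against Untreated, of opposite sign, but its mean was 4.02, well below the array median. For Canx, the 2 other probe sets gave -0.11 and 0.12 for Gpc4 against TSP1. Hspa5, Sdf2l1, Creld2, Hsp90b1, Chac1, Hspa1a, Bag3 and Hspb1 have 1 probe set each.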

How the data were processed

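RNA from 6 RGC samples (2 cultures in each of the Untreated, Gpc4 and TSP1 groups, assigned by their labels) was hybridised to Affymetrix rat arrays. The authors ran the scans through Expression Console, whose version the sources do not give, and deposited RMA values on the log2 scale, that is background-corrected, normalised between arrays and summarised per probe set, rounded to 2 decimals. RMA makes arrays alike in distribution, so a shift shared by most genes would not show. No filter or further normalisation was applied. Precision is limited by 2 arrays a group.

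Linear models were fitted in R 4.3.3 by the lmFit and eBayes functions of limma 3.58.1 (1 mean per group, all 6 arrays, 3 residual degrees of freedom). Tests were two-sided, and p values were adjusted by Benjamini-Hochberg across the 31042 probe sets. The culture comparison has treatment and culture in the model. The fit was tested on simulated data. Arrays of the same number deviated together (correlations of 0.2896, 0.3489 and 0.3744 over all probe sets), and the methods state 2 separate cultures, so the numbers pair the arrays. Of the probe sets 20826 have 1 symbol, 436 several and 9780 none in the platform annotation. Groups were called separate when both arrays of one lay above both of the other.

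The members and lists were chosen with earlier results of these data known. Array values are given for the 6 members of largest difference in each comparison and for genes of the pathway lists past the threshold. In a comparison of treatments where a pathway list had none, the 2 genes of smallest p with the same sign in both cultures are given, mostly by their difference alone. Motifs were searched in Python 3.11.15 in 1 RefSeq promoter window per symbol, the first listed. Alternatives were the culture block, median centring, quantile normalisation, a mean of at least 6, fits of only 2 groups, a trended prior variance, the mean over a gene's probe sets, an adjusted p under 0.10, the methods' t-test, and leaving out each array.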

Additional observations from a re-analysis of the deposited data

How the results depend on the processing

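No member passed the threshold in any comparison of treatments under the replicate block (0 for each), nor under any other limma setting. The methods' t-test without adjustment gave 2 members for Gpc4 against Untreated (Hspa5, Sdf2l1), 3 for TSP1 against Untreated (Hspa5, Hsp90b1, Pdia6) and 4 for Gpc4 against TSP1 (Hspa5, Dnajc3, Xbp1, Chac1), and 0 after Benjamini-Hochberg. Between cultures Hspb1 alone passed (1 member) with a mean of at least 6, with the mean over a gene's probe sets, with a trended prior variance and at an adjusted p under 0.10, and 0 passed with any array left out.

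The ER group median for Gpc4 against TSP1 was 0.115 with the mean over probe sets, 0.08 with median centring and 0.1146 with quantile normalisation. That of the heat shock group became -0.0075 with median centring, and for Gpc4 against Untreated 0.0662 with the mean over probe sets. With 1 array left out, the ER group median ran from 0 to 0.04 for Gpc4 against Untreated, -0.14 to -0.03 for TSP1 against Untreated and 0.06 to 0.13 for Gpc4 against TSP1, and the heat shock group median from 0.0075 to 0.1725, 0.03 to 0.1475 and -0.0325 to 0.035. The lowest value for Gpc4 against Untreated came without the Gpc4 array of culture 2 in both groups. Heat shock genes with both Gpc4 arrays above both TSP1 arrays numbered 0 with median centring and 2 with quantile normalisation. Of 1848 recomputed member differences 88 had another sign than in the main fit, none past a threshold. The main values whose sign turned were at most 0.2 in size, and the recomputed values are not bounded by this. With 2 arrays a group, intervals of a member's difference span about 0.4 log2 units or more.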
